A study of Mus musculus with 2 samples.

Results

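The insulin-like growth factor (IGF) binding proteins, the pappalysins and the receptors of IGF1 and insulin were followed here across the islet cells of mice with and without the transcription factor Isl1. The 9 genes, Igfbp2, Igfbp3, Igfbp4, Igfbp5, Igfbp7, Pappa, Pappa2, Igf1r and Insr, were taken by symbol from the 46984 features counted, and each matched 1 gene. They were picked with their values in these libraries known, so their levels are described and not tested. The series held 2 single-cell RNA libraries from 1-month-old mice, each made from islet cells of 3 pooled animals that were sorted for the red fluorescent reporter tdTomato. Isl1CKO animals had the genotype Neurod1 Cre/+; Isl1f/f. Control animals had the genotype Neurod1 Cre/+; Isl1f/+, so they shared the Cre allele and the reporter and carried a single floxed Isl1 allele. Neurod1 drives Cre in endocrine cells. Both libraries were dissociated with actinomycin D, which blocks new transcription. The labels give female and male animals for Isl1CKO and males for control.

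IGF1 and IGF2 act through the receptor tyrosine kinase encoded by Igf1r and, with insulin, through that encoded by Insr. In the tissue fluid the IGFs are held by binding proteins, which keep them from the receptor until a protease cuts the carrier. PAPP-A and PAPP-A2, the pappalysins, are such metalloproteases: PAPP-A is known for cutting IGFBP4 and IGFBP5, and PAPP-A2 for cutting IGFBP3 and IGFBP5. IGFBP7 differs from the classical binding proteins in its low affinity for IGFs. In islets, insulin and IGF1 receptors take part in beta cell growth and survival.

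After filtering, 7763 Isl1CKO and 3951 control endocrine cells remained, with medians of 8001 and 8853 UMIs (unique molecular identifiers, counted as captured RNA molecules), 2838 and 2430 genes, and 1.52% and 0.629% mitochondrial UMIs per cell. Only 8 cell barcodes occurred in both libraries. The 6 general endocrine markers (Chga, Chgb, Neurod1, Pax6, Insm1, Scg5) were all detected in both libraries. Of the cells whose sex could be read from Xist or Y-linked UMIs, 75.7% were female in Isl1CKO and 35.8% in control. The control label names males only, so values within each sex are given below. Sex was read in 6755 Isl1CKO and 2546 control endocrine cells. Each library pooled 3 animals, so the cells of 1 sex may come from a single animal, and sex was not told apart from animal. Whether free Xist RNA set some of the female calls was not tested. Isl1 itself was at 291.6 CPM (UMIs of the gene scaled to a common total) in Isl1CKO and 366 CPM in control endocrine cells. In alpha factor cells, defined below, it was at 386 CPM in Isl1CKO and 352 CPM in control, and in beta factor cells at 223 CPM and 351 CPM. The sources used here do not say which exons are floxed, and a 3′ tag outside the deleted part does not check the deletion. Free RNA also reaches these droplets. Its level, read from barcodes with 10 to 100 UMIs as CPM without scaling factors, is given beside each of the genes followed here. It is not given for the pathway genes read around them.

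Cells were grouped by hormone when Gcg (glucagon), Ins1 with Ins2 (insulin), Sst (somatostatin) or Ppy (pancreatic polypeptide) took at least 1% of a cell's UMIs. Hormone-positive cells of a single kind in Isl1CKO numbered 167 with Gcg, 880 with insulin, 3 with Sst and 3 with Ppy, against 1564, 179, 214 and 430 in control. Because 6702 Isl1CKO cells had no hormone at that level, against 96 control cells, a second grouping used lineage factors irrespective of hormone. Alpha factor cells had at least 2 UMIs over a short list of alpha lineage transcription factor genes, and beta factor cells at least 2 UMIs of Pdx1 and Nkx6-1, without the other set. There were 1825 Isl1CKO and 1639 control alpha factor cells, and 2454 Isl1CKO and 881 control beta factor cells. The beta factor groups were not alike: 0.0815% of them held Sst in Isl1CKO and 61.6% in control. Pdx1 is also a gene of delta cells. Ppy was held by 0.0815% of them in Isl1CKO and 60.95% in control, and insulin by 21.1% and 24.2%. Nor were the alpha factor groups alike in hormones: 5.86% held Gcg in Isl1CKO and 89.99% in control, and 0% and 26.1% held Ppy. Beta factor values without Sst cells are given below for Pappa2 and Igfbp5 only. Female cells made up 74.8% of the alpha factor cells of known sex in Isl1CKO and 41.0% in control, and 66.4% and 26.1% of the beta factor cells.

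Levels are UMIs summed over a group and given as CPM after TMM scaling, and log2 ratios are Isl1CKO over control. With 1 library per genotype there is no replicate check and no p-value. All intervals are 95% intervals of counting error alone. A gene counted as measured at 5 CPM in at least 1 library, and was called higher or lower at 2-fold with an interval that excludes equality. Over endocrine cells 6 of the 9 genes were measured, of which 2 were called higher (Igf1r and Igfbp4) and 3 lower (Pappa2, Igfbp5 and Igfbp7), while Insr was not called. Among all 10335 genes measured, 6.49% were called higher and 6.41% lower. The median log2 ratio was -0.47 over the 6 genes and 0.04 over all genes measured. Since these ratios were among those that chose the genes, the counts say nothing about the family beyond its own values.

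**Figure D1:**
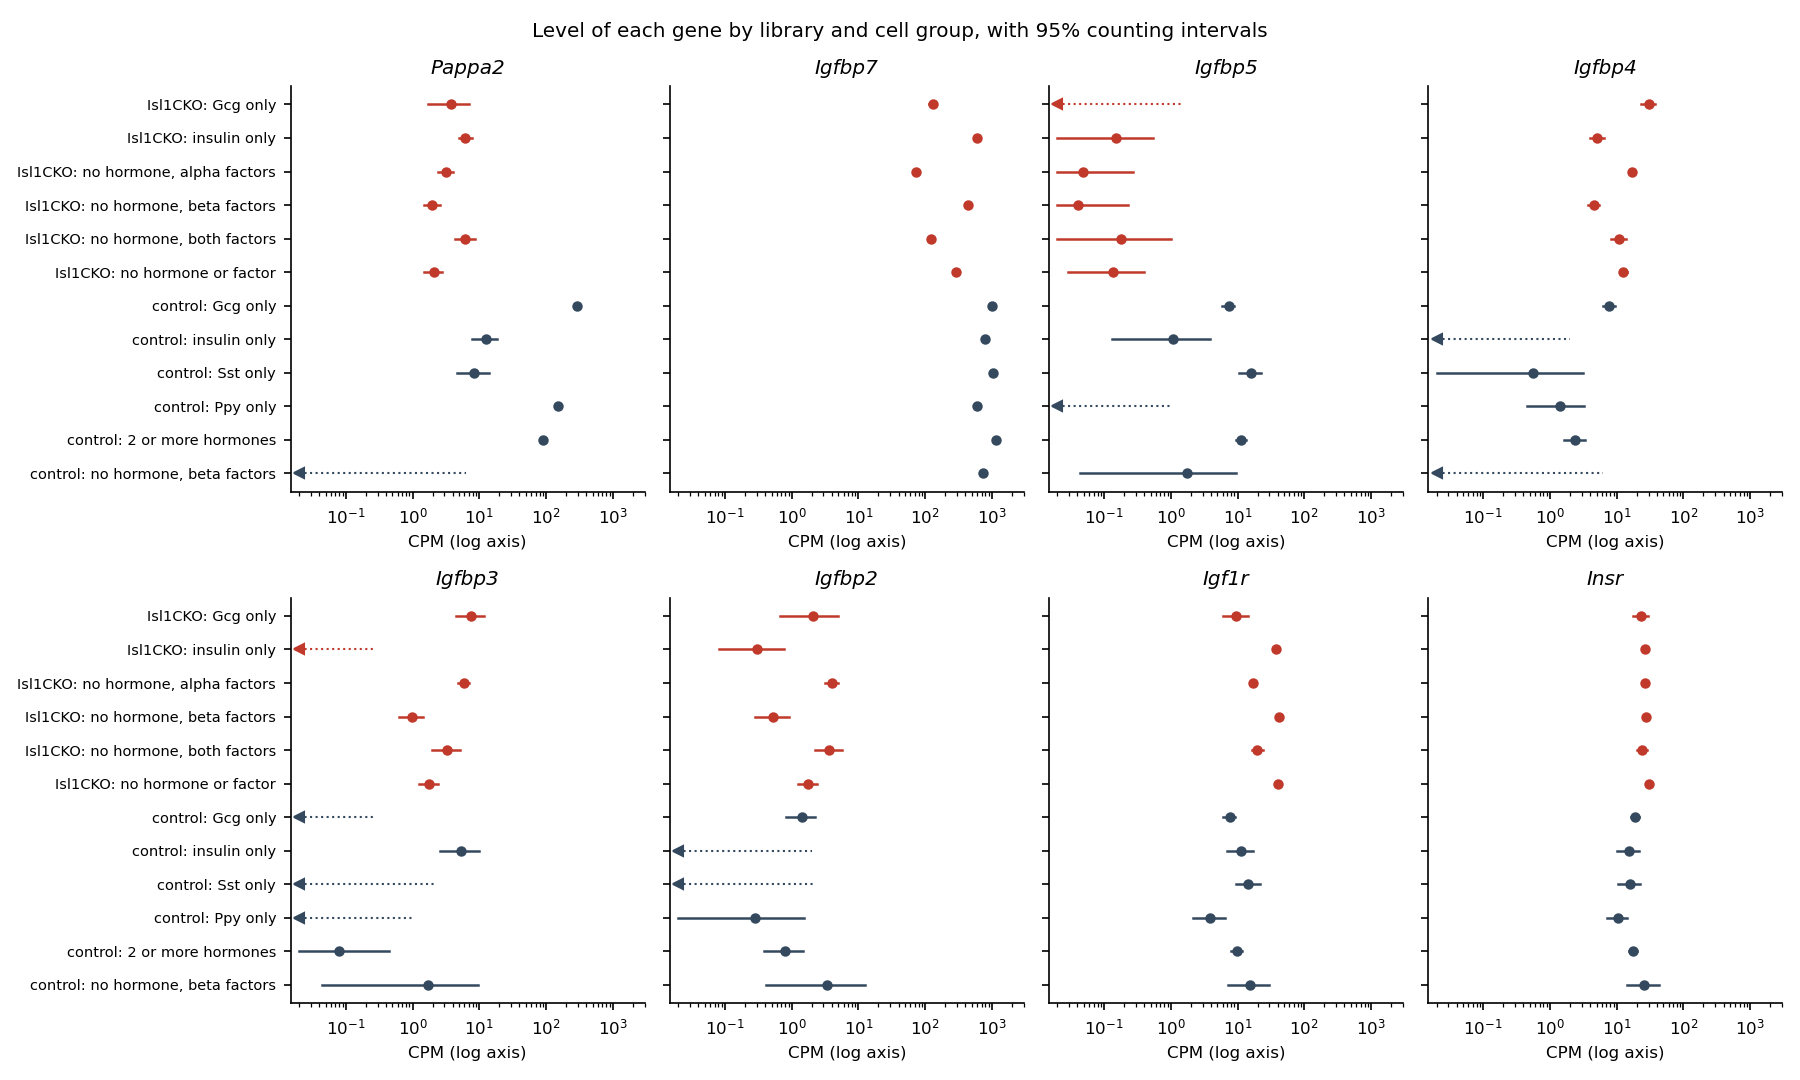
Level of 8 of the genes in CPM on a log axis (Pappa, under 5 CPM in each group shown, is left out) in each group of at least 50 cells, Isl1CKO in red above control in blue. Points are summed UMIs, bars are 95% counting intervals cut at 0.02 CPM, and arrows with dotted lines mark groups with no UMI. Pappa2 lies at 1.99 to 6.20 CPM in all Isl1CKO groups and reaches 290 CPM in control Gcg only cells.

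Start regions are shown for the 3 genes called lower over endocrine cells and for Igf1r, which had the highest ratio of those called higher there, because the series concerns the loss of a DNA-binding factor. Each is the RefSeq window on GRCm38.p6 from 250 bases before to 50 bases after the start, in the gene's own direction, with every CG dinucleotide in capitals. Pappa2 (chr1:158958126-158958425, minus strand), Igfbp5 (chr1:72874816-72875115, minus strand) and Igfbp7 (chr5:77407996-77408295, minus strand) were lower in Isl1CKO, and Igf1r (chr7:67952007-67952306, plus strand) was higher.
Pappa2: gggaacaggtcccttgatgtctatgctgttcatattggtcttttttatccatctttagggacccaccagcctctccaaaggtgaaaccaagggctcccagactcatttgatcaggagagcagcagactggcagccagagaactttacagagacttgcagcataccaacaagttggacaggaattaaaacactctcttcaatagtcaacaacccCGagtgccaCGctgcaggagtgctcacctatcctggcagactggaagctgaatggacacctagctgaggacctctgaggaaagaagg
Igfbp5: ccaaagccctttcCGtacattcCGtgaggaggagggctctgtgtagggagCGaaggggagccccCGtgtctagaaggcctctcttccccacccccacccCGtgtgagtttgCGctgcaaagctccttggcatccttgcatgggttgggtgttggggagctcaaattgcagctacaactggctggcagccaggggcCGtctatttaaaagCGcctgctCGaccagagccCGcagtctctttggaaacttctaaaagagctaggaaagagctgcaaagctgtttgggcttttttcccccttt
Igfbp7: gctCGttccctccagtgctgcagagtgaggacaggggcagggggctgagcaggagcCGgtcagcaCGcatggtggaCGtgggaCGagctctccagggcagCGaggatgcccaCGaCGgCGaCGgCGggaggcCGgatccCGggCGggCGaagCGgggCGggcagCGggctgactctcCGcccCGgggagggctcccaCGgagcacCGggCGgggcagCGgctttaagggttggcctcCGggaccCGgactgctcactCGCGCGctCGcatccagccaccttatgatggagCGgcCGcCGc
Igf1r: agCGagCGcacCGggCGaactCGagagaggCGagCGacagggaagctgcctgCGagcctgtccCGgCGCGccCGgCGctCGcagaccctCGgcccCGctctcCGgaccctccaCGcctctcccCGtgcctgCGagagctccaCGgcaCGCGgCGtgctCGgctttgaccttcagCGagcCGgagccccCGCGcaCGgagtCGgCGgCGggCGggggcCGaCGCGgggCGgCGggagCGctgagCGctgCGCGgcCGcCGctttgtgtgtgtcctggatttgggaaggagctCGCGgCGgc
The Pappa2 window held 2 CG and the Igfbp5 window 10, against 33 in Igfbp7 and 48 in Igf1r, where the median of 32851 such windows is 7. The genes lower in Isl1CKO thus had windows both poor and rich in CG. The letters TAAT, the core bound by homeodomain proteins, were searched on both strands and occurred 1 time in the Pappa2 window and not in the windows of the other 6 genes that have one, while 58.0% of all windows hold them. Windows were matched for 7 of the 9 genes.

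Pappa2, the gene of the IGFBP-cutting protease PAPP-A2, was an alpha cell gene of the control islets and was nearly undetected in Isl1CKO. It lies on chromosome 1 at 158711727-158980490 (minus strand, GENCODE annotation of GRCm38), and the RefSeq start printed above falls inside that span. Over endocrine cells Pappa2 was at 3.37 CPM in Isl1CKO (293 UMIs) and 164 CPM in control (5430 UMIs), a log2 ratio of -5.60 (interval -5.78 to -5.43). In alpha factor cells it was at 3.14 CPM in Isl1CKO and 277 CPM in control, a log2 ratio of -6.44 (interval -6.83 to -6.12). The gap was similar in cells that still made glucagon: Gcg only cells had 3.76 CPM in Isl1CKO (9 UMIs in 167 cells) and 290 CPM in control (3707 UMIs in 1564 cells), a log2 ratio of -6.12 (interval -7.40 to -5.34).

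Within control, Pappa2 followed the hormones of the cells. It stood at 290 CPM in Gcg only cells, 295 CPM in cells with Gcg and Ppy, and 149 CPM in Ppy only cells, against 12.4 CPM in insulin only, 8.42 CPM in Sst only and 6.96 CPM in cells with Sst and Ppy. The intervals of insulin only and Sst only cells overlapped each other and lay far below those of the Gcg and Ppy groups. Ppy cells were thus high in Pappa2 where they also held Gcg, intermediate where they held Ppy alone, and low where they held Sst. Free RNA of the control library held Pappa2 at 123 CPM (240 UMIs, interval 108 to 140 CPM). The insulin only and Sst only groups lay below that, so the low levels there were not told apart from free RNA. The Ppy only interval (136 to 162 CPM) overlapped that of free RNA, so its intermediate level was not told apart from free RNA either. A scaling factor of 0.648 also raised the Ppy only level, while free RNA is unscaled. Isl1CKO free RNA held 3.01 CPM (12 UMIs), near the level of the Isl1CKO cells themselves.

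Counted by cell, after thinning each to 3000 UMIs, 1.28% of Isl1CKO alpha factor cells and 45.4% of control alpha factor cells held a Pappa2 UMI (unthinned 2.68% and 77.0%, at medians of 9393 and 10201 UMIs). Control insulin only cells, which make no glucagon at this limit, gave 1.16% after thinning and 7.82% before, at a median of 19795 UMIs. In Isl1CKO insulin only cells the share was 1.52% after thinning and 7.16% before, at a median of 12490 UMIs, so the alpha factor share in that library was no higher than in its insulin cells. The highest count in a single Isl1CKO alpha factor cell was 6 UMIs, against 18 in control. Whether the remaining Isl1CKO UMIs came from free RNA was not tested. No Isl1CKO cell of this group held 3 or more Pappa2 UMIs after thinning, against 5.82% of the control cells. The level differed in both sexes: male alpha factor cells had 5.71 CPM in Isl1CKO and 282 CPM in control (log2 ratio -5.59), and female ones 1.24 CPM in Isl1CKO and 283 CPM in control (log2 ratio -7.74). Pappa2 contains the gene 1600012P17Rik on the same strand, which had 0 UMIs in both libraries.

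In beta factor cells Pappa2 was at 3.07 CPM in Isl1CKO and 19.95 CPM in control, a log2 ratio of -2.70 (interval -3.07 to -2.34). Without cells holding Sst, the levels were 3.07 CPM in Isl1CKO and 38.7 CPM in control, and the log2 ratio was -3.65. These groups were still not alike: 28.4% of the control cells held Ppy and 5.92% Gcg, against 0.0408% and 0.163% in Isl1CKO. The part of this mix in the difference was not tested. In insulin only cells the values were 6.20 CPM in Isl1CKO and 12.4 CPM in control (log2 ratio -1.05, interval -1.68 to -0.27), and the direction turned to 0.07 without scaling factors. The control side of both comparisons lies below the free RNA level of its library, and the part of free RNA in the difference was not tested.

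Pappa, the gene of the related protease PAPP-A (chromosome 4, 65124174-65357509, plus strand), stayed below 5 CPM in every endocrine group with the sexes pooled. It had 18 UMIs (0.207 CPM) in Isl1CKO and 26 UMIs (0.786 CPM) in control endocrine cells. Male endocrine cells held 0 UMIs in Isl1CKO and 17 in control, and female ones 17 and 0. The highest level was in control Sst only cells, at 4.49 CPM (8 UMIs in 214 cells), and in the male cells of that group it was at 7.28 CPM (7 UMIs in 105 cells). Control cells with Sst and Ppy followed at 1.77 CPM (14 UMIs). In alpha factor cells it had 0 UMIs in Isl1CKO and 1 in control, so no fold is given. Free RNA held 0 Pappa UMIs in both libraries.

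**Figure D2:**
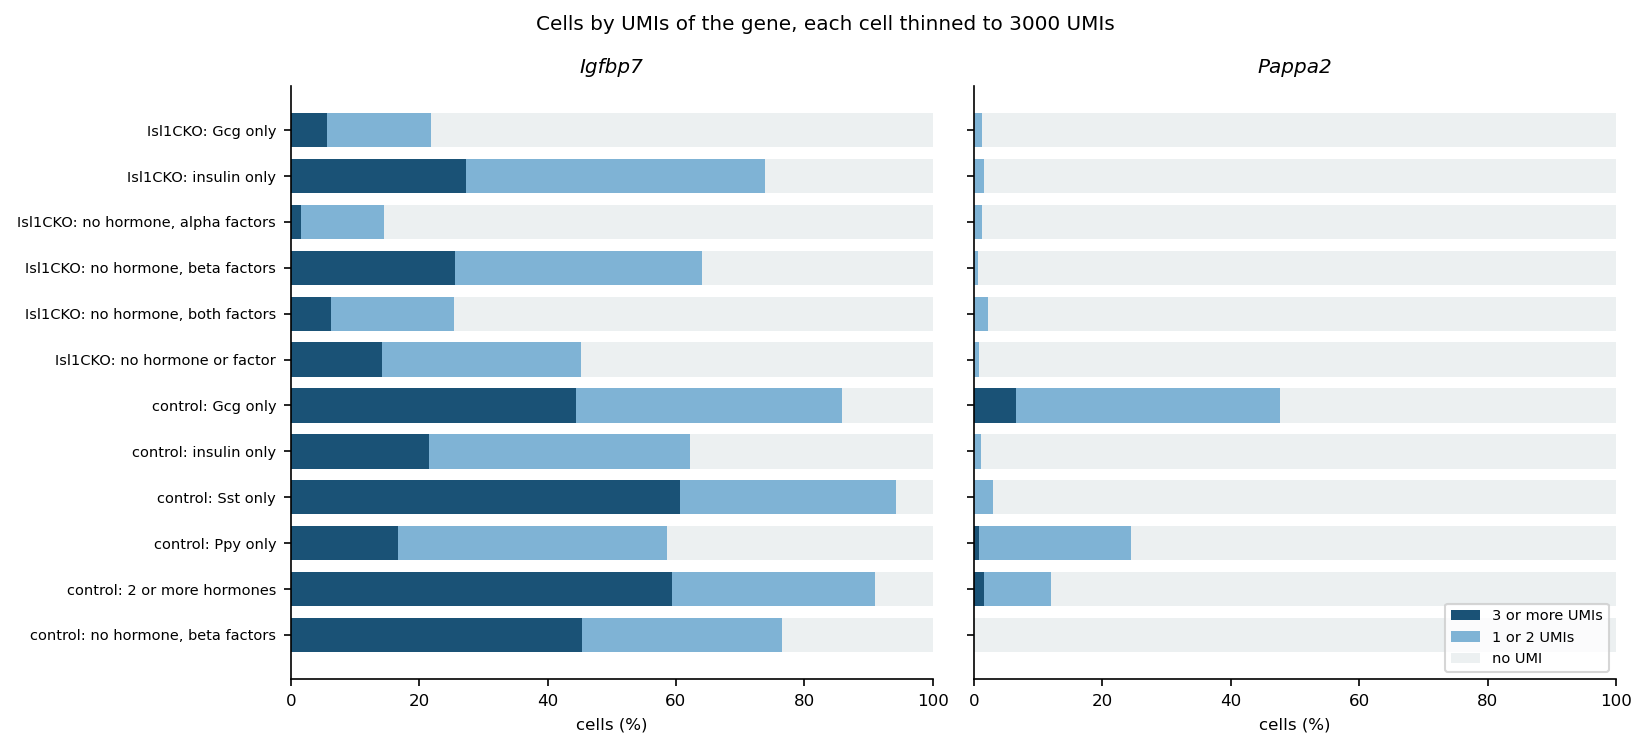
Percent of cells by UMIs of Igfbp7 (left) and Pappa2 (right) after each cell was thinned to 3000 UMIs, in each group of at least 50 cells, Isl1CKO rows above control rows. In the Isl1CKO row of cells with alpha factors and no hormone 14.5% held Igfbp7, against 85.8% of control Gcg only cells, and the dark bars (3 or more UMIs) show 1.66% against 44.4%.

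Igfbp7, which encodes a secreted binding protein also made in quantity by endothelium and stroma, was present in nearly all control endocrine cells and was lowest in the alpha factor cells of Isl1CKO. Over endocrine cells it was at 324 CPM in Isl1CKO (28111 UMIs) and 1012 CPM in control (33464 UMIs), a log2 ratio of -1.65 (interval -1.67 to -1.62). In alpha factor cells it was at 77.4 CPM in Isl1CKO and 1006 CPM in control, a log2 ratio of -3.70 (interval -3.77 to -3.63). In Gcg only cells it was at 129 CPM in Isl1CKO and 997 CPM in control (log2 ratio -2.94). Beta factor cells had 508 CPM in Isl1CKO and 985 CPM in control, a log2 ratio of -0.96 that stayed short of 2-fold. Insulin only cells had 605 CPM in Isl1CKO and 798 CPM in control (log2 ratio -0.40), and this direction turned to 0.72 without scaling factors and to 0.23 in male cells (830 CPM in Isl1CKO and 707 CPM in control).

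After TMM scaling, control groups were thus within a narrow band, from 594 CPM in Ppy only to 1160 CPM in cells with 2 or more hormones. Isl1CKO groups spread from 72.4 CPM in cells with alpha factors and no hormone to 605 CPM in insulin only cells. Between these, Isl1CKO cells with both factor sets and no hormone had 121 CPM, cells with no hormone or factor 295 CPM, and cells with beta factors and no hormone 439 CPM. The intervals of the Isl1CKO Gcg only group and the group with both factor sets overlapped, and those of every other neighbouring pair of Isl1CKO groups in this order did not. By cell, 14.9% of Isl1CKO alpha factor cells and 82.9% of control ones held Igfbp7 after thinning (unthinned 31.7% and 97.3%). Of beta factor cells 66.9% in Isl1CKO and 85.3% in control held it (unthinned 86.0% and 96.7%). In insulin only cells the thinned share was 73.8% in Isl1CKO and 62.2% in control, opposite to the CPM, so no order is read there.

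Free RNA held Igfbp7 at 399.5 CPM in Isl1CKO and 634.5 CPM in control. The control Ppy only level (594 CPM) lay below the control free RNA, with overlapping intervals, and was not told apart from it. That overlap rests on a scaling factor of 0.648, which raised the Ppy only level, while free RNA is unscaled. Without scaling factors, control insulin only cells were at 409 CPM, also below it, and control Gcg only cells at 853 CPM, above it. The part of free RNA in the control levels was not tested. The Isl1CKO alpha factor cells lay below the free RNA of their own library, and the share of the remaining 77.4 CPM that came from it was not tested. The 9 endothelial markers summed to 16.2 CPM in Isl1CKO and 18.3 CPM in control alpha factor cells, with Cdh5, Flt1 and Emcn at 0 in both. Within that sum Plvap was at 4.56 CPM in Isl1CKO and 0.206 CPM in control, Pecam1 at 1.09 and 0.0685 CPM, and Kdr at 1.00 and 0.0685 CPM, and Cldn5 had 15 and 0 UMIs, while Egfl7 was at 5.01 and 9.66 CPM and Esam at 3.83 and 8.29 CPM. The 10 stromal markers summed to 4.60 CPM in Isl1CKO and 7.19 CPM in control, with 6 and 3 of them at 0. Rgs5 was at 4.38 CPM in Isl1CKO and 1.23 CPM in control, and Col1a2 at 0 and 4.25 CPM. The part of other cell types in the Igfbp7 difference was not tested. Over endocrine cells the log2 ratio was -0.96 in males (499 CPM in Isl1CKO and 973 CPM in control), short of 2-fold and not called. In females it was -2.02 (224 and 908 CPM). Within sex, alpha factor cells differed by a log2 ratio of -3.28 in males and -3.89 in females. In beta factor cells the log2 ratio was -0.34 in males and -1.48 in females. Polr2b overlaps Igfbp7 on the opposite strand and was at 49.5 CPM in Isl1CKO and 42.9 CPM in control alpha factor cells.

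Igfbp5, whose protein binds IGFs tightly and is a substrate of both pappalysins, was found at low levels in control cells with Sst or Gcg and was nearly undetected in Isl1CKO. It lies on chromosome 1 at 72857932-72874884 (minus strand), 5457 bases from the end of Igfbp2. Endocrine cells held 10 Igfbp5 UMIs in Isl1CKO (0.115 CPM) and 279 in control (8.44 CPM), a log2 ratio of -6.06 (interval -7.27 to -5.29). Alpha factor cells held 1 UMI in Isl1CKO and 94 in control (0.0456 and 6.44 CPM, log2 ratio -6.16). Gcg only cells held 0 UMIs in Isl1CKO and 94 in control (7.35 CPM). With only 167 Isl1CKO cells there, the level was 5.87-fold lower when 3 counts were taken for that group, and the interval of the log2 ratio ended at -2.23.

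In control the highest Igfbp5 level was in Sst only cells, at 15.7 CPM (28 UMIs), followed by 13.3 CPM in cells with Sst and Ppy and 7.35 CPM in Gcg only cells. Ppy only cells had none, with an interval up to 1.03 CPM, and insulin only cells had 2 UMIs from 1 cell. Beta factor cells held 4 UMIs in Isl1CKO and 64 in control (0.12 and 7.51 CPM, log2 ratio -5.67). When cells with Sst were left out, 2 UMIs in Isl1CKO and 5 in control remained (0.0602 and 1.49 CPM), below the measured limit, and the log2 ratio was -4.31. Isl1CKO free RNA held 0.502 CPM and control free RNA 8.22 CPM (interval 4.70 to 13.3). The control alpha factor and Gcg only levels were no higher than that, and the interval of the Sst only level (10.4 to 22.7 CPM) overlapped it, so these levels were not told apart from free RNA. Male endocrine cells had 0.168 CPM in Isl1CKO and 8.46 CPM in control, and female ones 0.098 and 7.87 CPM.

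Igfbp4, the classical substrate of PAPP-A, was higher in Isl1CKO with the sexes pooled. In alpha factor cells it was higher in female cells and not in male cells, with sex not told apart from animal. It lies on chromosome 11 at 99041244-99054392 (plus strand). Endocrine cells had 10.8 CPM in Isl1CKO (940 UMIs) and 4.23 CPM in control (140 UMIs), a log2 ratio of 1.35 (interval 1.10 to 1.62). Alpha factor cells had 17.2 CPM in Isl1CKO and 6.58 CPM in control (log2 ratio 1.38, interval 1.06 to 1.73), and Gcg only cells 30.1 and 7.74 CPM (log2 ratio 1.96). Male alpha factor cells had 4.42 CPM in Isl1CKO (31 UMIs) and 7.65 CPM in control (48 UMIs), a log2 ratio of -0.77 (interval -1.49 to -0.11) that was not called. Female alpha factor cells had 25.3 CPM in Isl1CKO (306 UMIs) and 2.80 CPM in control (11 UMIs), a log2 ratio of 3.05. Over endocrine cells the log2 ratio was -0.30 in males, with an interval from -0.76 to 0.19, and 2.33 in females. In beta factor cells males had 31 UMIs in Isl1CKO (2.80 CPM) and 0 in control, and females 120 (6.87 CPM) and 2 (1.41 CPM), so Isl1CKO was the higher in both.

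Both libraries had more Igfbp4 in alpha than in beta groups. In beta factor cells it was at 4.75 CPM in Isl1CKO (158 UMIs) and 0.235 CPM in control (2 UMIs), under the measured limit. Insulin only cells had 5.08 CPM in Isl1CKO (68 UMIs) and 0 UMIs in control, 3.14-fold higher against 3 control counts, with the interval of the log2 ratio beginning at 1.31. With TMM fitted to these 2 sums alone it fell under the measured limit, at 3.83 CPM in Isl1CKO. Free RNA held 14.3 CPM in Isl1CKO (57 UMIs) and 1.54 CPM in control (3 UMIs). The Isl1CKO beta factor and insulin only levels lay below that of the free RNA and were not told apart from it. The interval of the alpha factor level (15.53 to 19.05 CPM) overlapped that of the free RNA (10.83 to 18.52 CPM), so it was not told apart either. The interval of the Gcg only level (23.52 to 37.85 CPM) lay above that of the free RNA. The part of free RNA in the difference was not tested. The stromal and endothelial markers of alpha factor cells, some higher and some lower in Isl1CKO, are given beside Igfbp7, and their part in the Igfbp4 values was not tested.

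Igfbp3 encodes the main carrier of IGFs in blood, and Igfbp2 another soluble IGF carrier. Both were rare and, in Isl1CKO, lay mostly in alpha factor cells. Igfbp3 (chromosome 11, 7206086-7213923, minus strand) had 134 UMIs in Isl1CKO alpha factor cells (6.11 CPM, in 83 of 1825 cells) and 0 in 1639 control ones. Set against 3 control counts that is 29.7-fold higher, and the interval of the log2 ratio began at 4.575. Gcg only cells had 18 UMIs in Isl1CKO (7.51 CPM) and 0 in control, 32.0-fold higher against 3 control counts, with the interval of the log2 ratio beginning at 4.55. Male alpha factor cells had Igfbp3 at 9.99 CPM in Isl1CKO (70 UMIs) and 0 UMIs in control. Female ones had 4.135 CPM in Isl1CKO (50 UMIs), under the measured limit and so not called, and 0 UMIs in control. Isl1CKO free RNA held 2.01 CPM (8 UMIs) and control free RNA 0 UMIs. In insulin only cells Isl1CKO had 0 UMIs and control 10 UMIs (5.40 CPM), all in 1 cell, so the lower call there rests on a single cell. Igfbp2 (chromosome 1, 72824503-72852474, plus strand) was at 3.92 CPM in Isl1CKO (86 UMIs) and 1.44 CPM in control alpha factor cells (21 UMIs), under the measured limit. By sex these were 1.71 and 0.638 CPM in male cells and 4.05 and 2.29 CPM in female cells. Free RNA held Igfbp2 at 1.505 CPM in Isl1CKO (6 UMIs) and 1.541 CPM in control (3 UMIs). The control alpha factor level was not told apart from that of its free RNA.

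In alpha factor cells 7 of the 9 genes were measured, 3 called higher (Igfbp3, Igfbp4 and Igf1r) and 3 lower (Pappa2, Igfbp5 and Igfbp7). Among all 10169 genes measured there, 6.89% were called higher and 7.13% lower. The median log2 ratio was 0.60 over the 7 genes, also with Igfbp3 set against 3 control counts, and 0.04 over all genes. In beta factor cells 5 were measured, 1 called higher (Igf1r) and 2 lower (Pappa2 and Igfbp5). Of all 10325 genes measured there, 7.69% were called higher and 6.74% lower, and the medians were -0.96 and 0.05. In Gcg only cells 7 were measured, 2 called higher and 3 lower, against 8.61% and 11.7% of 10210 genes. In insulin only cells 6 were measured, 2 called higher (Igf1r and Igfbp4) and 2 lower (Pappa2 and Igfbp3), against 9.8% and 6.74% of 10196 genes.

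**Figure D3:**
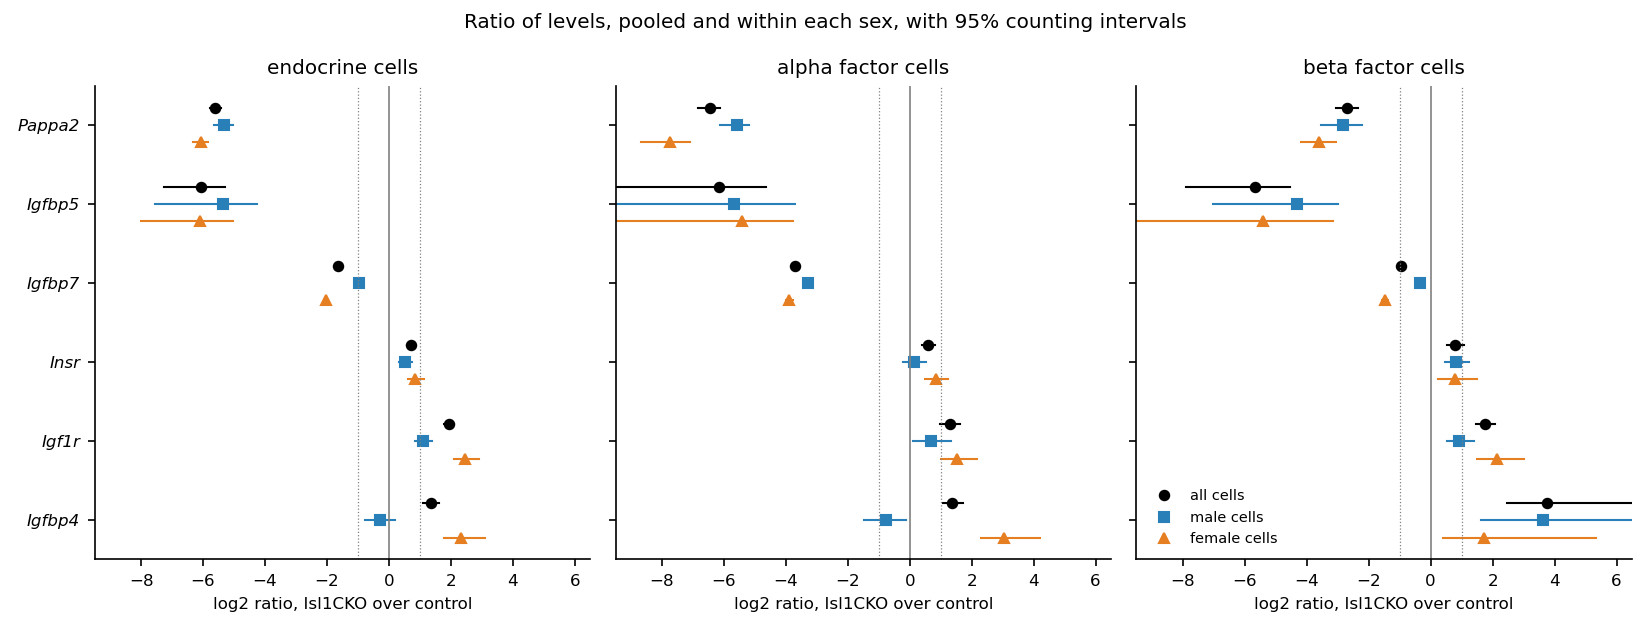
Log2 ratio of CPM, Isl1CKO over control, of 6 genes in endocrine, alpha factor and beta factor cells, for all cells (black), male cells (blue) and female cells (orange), with 95% counting intervals cut at the frame. Dotted lines mark 2-fold. Pappa2 and Igfbp5 lie far to the left in each sex, and Igfbp4 lies on both sides of 0 in alpha factor cells, at -0.77 in males and 3.05 in females.

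Igf1r, the IGF1 receptor gene, was higher in Isl1CKO, most in cells without alpha factors. It lies on chromosome 7 at 67952827-68233668 (plus strand). Endocrine cells had 33.6 CPM in Isl1CKO (2918 UMIs) and 8.77 CPM in control (290 UMIs), a log2 ratio of 1.93 (interval 1.76 to 2.12). Beta factor cells had 39.7 CPM in Isl1CKO and 11.7 CPM in control (log2 ratio 1.74, interval 1.46 to 2.06), insulin only cells 37.1 and 11.3 CPM (log2 ratio 1.65), and alpha factor cells 16.7 and 6.78 CPM (log2 ratio 1.29, interval 0.98 to 1.64). In Gcg only cells it was at 9.60 CPM in Isl1CKO and 7.58 CPM in control, a log2 ratio of 0.39 whose interval reached from -0.38 to 1.01.

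In order of level, Isl1CKO cells with beta factors and no hormone, with no hormone or factor, and with insulin only had 41.5, 40.8 and 37.1 CPM, with overlapping intervals. All other groups were at or below 19.9 CPM, and the lowest was the control Ppy only group at 3.90 CPM. By cell, 12.4% of Isl1CKO and 2.62% of control endocrine cells held an Igf1r UMI after thinning (unthinned 28.4% and 6.93%). Free RNA held 21.8 CPM in Isl1CKO (87 UMIs) and 4.11 CPM in control (8 UMIs), so the Isl1CKO alpha factor level was near that of the free RNA, the Gcg only level below it and the beta factor level above it. The part of free RNA in the difference was not tested. The direction was the same in both sexes and larger in females: endocrine cells gave 1.10 in males (19.3 CPM in Isl1CKO and 8.92 CPM in control) and 2.47 in females (42.7 and 7.61 CPM). Males stayed below 2-fold in alpha factor cells at 0.68, in beta factor cells at 0.92 and in insulin only cells at 0.93. The difference between the sexes was not tested.

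Insr, the insulin receptor gene (chromosome 8, 3122061-3279617, minus strand), was moderately higher in Isl1CKO and was called in none of the groups. Endocrine cells had 28.4 CPM in Isl1CKO (2462 UMIs) and 17.3 CPM in control (573 UMIs), a log2 ratio of 0.71 (interval 0.58 to 0.84). The log2 ratio was 0.60 in alpha factor, 0.80 in beta factor and 0.76 in insulin only cells, and 0.31 in Gcg only cells with an interval from -0.16 to 0.72. In male cells it was 0.54 over endocrine and 0.15 over alpha factor cells. Male alpha factor cells had 18.55 CPM in Isl1CKO and 16.7 CPM in control, and female ones 34.65 and 19.1 CPM. Isl1CKO groups ran from 23.0 to 30.9 CPM and control groups from 10.3 to 25.8 CPM, and each group's interval overlapped that of its neighbour in the order. The control Ppy only group was the lowest, and its interval (7.26 to 14.2 CPM) lay below that of control Gcg only cells (16.5 to 21.3 CPM). Without scaling factors the log2 ratio was 1.25 in endocrine, 1.05 in alpha factor, 1.38 in beta factor and 1.88 in insulin only cells, called higher in each, and 0.60 in Gcg only cells. In Gcg only cells it turned to -0.05 once hormone genes were taken off the totals. Free RNA held 30.9 CPM in Isl1CKO and 15.4 CPM in control, close to the cells of each library. Insr overlaps Vmn2r-ps88 and Gm16180 on the opposite strand, and the strand setting of the counting is not given in the sources used here.

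Around the receptors, a list of 64 other genes of the insulin and IGF pathway was read in the same way. Over endocrine cells 46 were measured, 4 called higher and 1 lower, against 6.49% and 6.41% of all genes, with a median log2 ratio of 0.29 against 0.04. The ligands were nearly undetected: Igf1 had 4 UMIs in Isl1CKO and 1 in control, and Igf2 was at 1.42 CPM in Isl1CKO and 0.423 CPM in control. Irs2, the docking protein that links both receptors to PI3-kinase, was at 56.0 CPM in Isl1CKO and 7.35 CPM in control (log2 ratio 2.92, interval 2.74 to 3.12), and it was called higher also in alpha factor (2.93) and beta factor cells (2.695). Foxo3, a forkhead factor that AKT phosphorylates, was at 44.7 CPM in Isl1CKO and 18.3 CPM in control (1.28). Foxo1, its relative in islets, was at 68.6 CPM in Isl1CKO and 41.1 CPM in control (0.74, not called).

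Of the other called genes, Ctsd, encoding the lysosomal protease cathepsin D, was at 313 CPM in Isl1CKO and 134 CPM in control (1.23), and Adam9, a membrane metalloprotease gene, at 8.95 and 3.78 CPM (1.23). Igfals, encoding the acid-labile subunit that joins IGF and IGFBP3 or IGFBP5 in the large carrier complex of blood, was at 3.10 CPM in Isl1CKO and 7.68 CPM in control (-1.31). None of the 12 PI3-kinase and AKT genes and none of the 7 RAS and MAPK genes was called in the endocrine, alpha factor or beta factor comparison. That holds at the 2-fold limit with scaling. Over endocrine cells Pik3r1 was at 0.92 (interval 0.82 to 1.025) and Pik3r2 at -0.73, and without scaling factors all log2 ratios there rise by 0.54. The median over endocrine cells was 0.22 for the PI3-kinase and AKT genes and -0.19 for the RAS and MAPK genes. In alpha factor cells 47 of the list were measured, 4 called higher and 1 lower, against 6.89% and 7.13% of all genes. In beta factor cells 46 were measured, 5 called higher and 1 lower, against 7.69% and 6.74%. Mtor was called higher in alpha factor cells (1.035), and Tsc1 (1.09) and Igf2bp2 (1.20) in beta factor cells. In male cells these were at 0.47, 0.93 and 0.71. Igf2bp2 was at -0.94 in alpha factor cells, not called. In alpha factor cells Igfbp1, another soluble IGF carrier gene, had 176 UMIs in Isl1CKO (8.02 CPM) and 7 in control (0.48 CPM), a log2 ratio of 3.88. In male alpha factor cells Igfbp1 was at 1.14 CPM in Isl1CKO and 0.159 CPM in control, under the measured limit, and in female ones at 11.7 and 1.02 CPM. Within sex, Irs2 and Ctsd kept their calls in endocrine cells, with log2 ratios of 2.00 and 1.44 in males and 3.25 and 1.29 in females. Foxo3 was at 0.63 in males and 1.46 in females, Adam9 at 0.68 and 1.93, and Igfals at -0.18 and -2.13, so these 3 stayed under 2-fold in males.

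**Figure D4:**
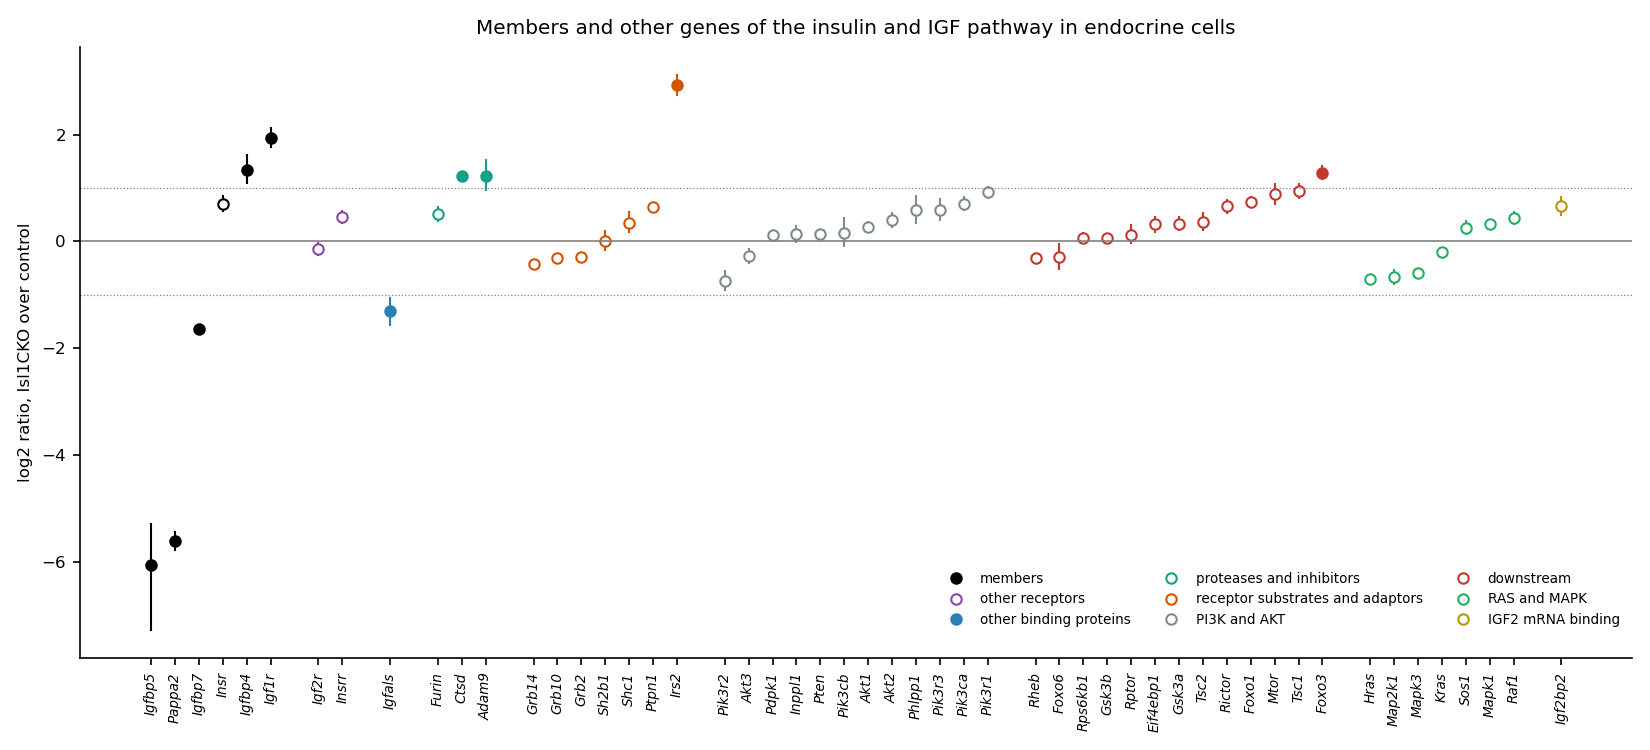
Log2 ratio of CPM in endocrine cells, Isl1CKO over control, of the 6 measured members (black, left) and the 46 measured genes of the pathway list by role, with 95% counting intervals. Filled points are called at 2-fold (dotted lines). Irs2 stands highest at 2.92, and no listed gene outside the members lies below Igfals at -1.31.

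The genes most like each member were named by the Pearson correlation of log2(CPM + 1) over the 12 library and hormone or factor groups, among 7015 genes at 20 CPM in some group. The points share their libraries and the scaling, so the correlations also follow the genotype, and they are descriptions. Nearest to Pappa2 were Gpr119 (r 0.94), Me1 (0.93) and RP24-157O12.2 (0.93), and nearest to Igfbp7 were Tmem108 (0.97), Rbmx (0.95) and Dpp4 (0.95). Nearest to Igf1r were Nras (0.97), Crebl2 (0.97) and Lrrc58 (0.96), nearest to Insr Ddx3x (0.96), Bcl2l11 (0.96) and Ubxn7 (0.96), and nearest to Igfbp4 the ribosomal protein genes Rpl11 (0.99), Rps26 (0.98) and Rpl32 (0.98). In Isl1CKO and control endocrine cells the sexes, the mitochondrial share and the mix of hormone groups moved together with the genotype, and their parts in these differences cannot be told apart beyond the within-sex and within-group values given.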

How the data were processed

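The 2 deposited matrices were read, 1 per library, holding UMI counts as whole numbers for 46984 features in 6794880 barcodes, unfiltered. The genome GRCm38.p6 and the tools Seurat 4.3.0.1 and STARsolo, from STAR 2.7.3a, are named in the submitters' processing notes. The library totals were 86086781 UMIs in Isl1CKO and 48685758 in control.

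Cells needed 1000 UMIs, 500 genes and at most 15% mitochondrial UMIs, which left 8231 Isl1CKO and 4219 control cells. Scrublet (scanpy 1.11.5, expected rate 0.05) set an automatic threshold that marked 249 control cells and 0 Isl1CKO cells, so it had not worked in Isl1CKO. The control threshold of 0.185 was used for both and took out 360 Isl1CKO cells (4.37%) and 249 control cells (5.90%). Cells with 1% of UMIs in an acinar, ductal, immune, stromal, endothelial or Schwann marker list (108 Isl1CKO and 19 control) were left out. Summed UMIs were scaled by TMM (edgeR 4.0.16, R 4.3.3) over all groups at once. Ratios used 1 added to each count and exact conditional Poisson intervals, and shares have exact Clopper-Pearson intervals. The ratio script was tested on simulated data. Free RNA is the sum over barcodes with 10 to 100 UMIs. Thinning to 3000 UMIs left out 676 Isl1CKO and 172 control endocrine cells.

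Members, lists, thresholds and alternatives were chosen with earlier results of these data known. Named genes are the 9 members, pathway genes called in endocrine cells, and the 3 genes most correlated with each member at 20 CPM. Foxo1, the ligands, Pik3r1, Pik3r2 and the pathway genes named in alpha factor or beta factor cells were added after their values were seen. The genes of the alpha lineage factor list are not reported here.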

Additional observations from a re-analysis of the deposited data

Results flagged for a closer look

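Igfbp4 in alpha factor cells gave ratios of opposite sign in the 2 sexes. The log2 ratio of Isl1CKO over control was -0.77 in male cells, with 4.42 CPM in Isl1CKO and 7.65 CPM in control (under 2-fold, not called), and 3.05 in female cells, with 25.3 CPM in Isl1CKO and 2.80 CPM in control. There was 1 library per genotype and the difference between the sexes was not tested. Each library pooled 3 animals, so sex was not told apart from animal. The numbers of cells were 410 male and 1218 female in Isl1CKO, against 663 male and 460 female in control.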

How the results depend on the processing

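No paired analysis was possible because each genotype has 1 library. Of 684 log2 ratios of members under alternatives, 22 changed sign. Of these, 3 had been called: Igfbp4 in male cells, at -0.30 over endocrine and -0.77 over alpha factor cells, and Pappa2 without scaling factors in insulin only cells, at 0.0729. Another 3 were measured but not called: Igfbp7 in insulin only cells without scaling factors (0.72) and in male cells (0.23), and Insr in Gcg only cells with hormone genes out of the totals (-0.05). The other 16 were Igfbp2, Igfbp3 and Pappa below the measured limit. Members called over endocrine cells (5 in the main setting) were 3 at a 20 CPM minimum and 3 in male cells, where Igfbp4 and Igfbp7 lost their calls. Those in alpha factor cells (6) were 2 at a 20 CPM minimum. Those in beta factor cells (3) were 1 at a 20 CPM minimum and 5 without scaling factors, at a fold of 1.5 and at 1 factor UMI. Pathway genes called over endocrine cells (5, of which 4 higher and 1 lower) were 15 without scaling factors (15 higher and 0 lower), 12 with no minimum level, 3 at a 20 CPM minimum, 18 at a fold of 1.5 and 8 in female cells. Without scaling factors the whole set of log2 ratios shifted by 0.54 in endocrine, 0.45 in alpha factor, 0.59 in beta factor, 0.29 in Gcg only and 1.12 in insulin only cells, and with hormone genes out of the totals by -0.03, -0.23, 0.03, -0.36 and -0.10. The TMM fit within each pair and the beta factor group without Sst were chosen after seeing the data. Depth limits Igfbp2, Igfbp3, Igfbp5 and Pappa, which rest on few UMIs.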

Other observations

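Outside the endocrine cells, the 108 Isl1CKO and 19 control cells left out as other cell types held Igfbp7 at 362 CPM in Isl1CKO and 2663 CPM in control, Igfbp4 at 24.8 CPM and 73.7 CPM, and Igfbp3 at 11.8 CPM and 147 CPM. Igfbp5 had 12 UMIs there in Isl1CKO (14.2 CPM) and 0 in control, where a count of 0 allows up to 27.7 CPM. The acinar markers summed to 198700 CPM in Isl1CKO and 43520 CPM in control, the immune markers to 5255 and 10650 CPM, and the stromal markers to 327.8 and 3354 CPM, so these groups differ in makeup. All levels of these left-out cells are CPM without scaling factors, unlike those of the endocrine groups.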
